A study of Mus musculus with 8 samples.

Results

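The peaks described here are those of Polr1c on the mouse autosomes, chromosomes 1 to 19, sorted by whether they overlapped a Panx2 peak by at least 1 bp. They came from ChIP-seq, which sequences DNA crosslinked to an immunoprecipitated protein, in primary neural progenitor cells taken from male C57BL/6 mice (hippocampus) and cultured. The labels give no genetic change and no treatment for any sample, and all were grown in DMEM with HEPES, a B27 supplement, penicillin and streptomycin and crosslinked with formaldehyde. Polr1c, Panx2, Mgea5 and input chromatin were each sequenced in 2 repeats (8 samples), and peak lists of the 6 immunoprecipitated libraries were analysed. The age of the animals, any pooling of animals and whether the repeats were separate cultures are not given in the labels, so the difference between repeats may be technical. The members were 36084 Polr1c peaks of the 1719263 peaks in all 6 lists: 760 in Polr1c repeat 1 and 35324 in repeat 2. Each Polr1c peak was placed in a class by the Panx2 list it touched: repeat 1 only, repeat 2 only, both, or neither. Because the Polr1c lists differ so much in length, the repeats were kept apart throughout.

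Polr1c is a subunit shared by RNA polymerase I, which transcribes the large ribosomal RNA precursor, and RNA polymerase III, which makes transfer RNAs, 5S ribosomal RNA and a small set of other short RNAs. In growing progenitor cells these enzymes supply the RNA for protein synthesis. At tRNA and 5S genes RNA polymerase III is recruited through promoter elements inside the gene, whereas genes such as Rn7sk and Rmrp use elements upstream. Panx2 belongs to the pannexins, membrane channel proteins, and is abundant in the nervous system. It is not known as a DNA-binding protein. Mgea5, now named Oga, removes O-GlcNAc from proteins.

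The sequences below show promoters at which both Polr1c repeats had a peak. The 8-base motif CAGATTCG was chosen after the values were seen. It was searched on both strands in the RefSeq promoter table (GRCm38.p6), which holds 300 bases per promoter, from 250 before to 50 after a gene's start. It occurred in 81 of 20085 protein-coding promoters (0.403%) and in 10 of the 65 that carried Polr1c in both repeats (15.4%). These were 6 of 44 with Panx2 at a Polr1c peak (13.6%) and 4 of 21 without (19%), so the letters were present in both groups. Of promoters with Polr1c in repeat 2 only, 7 of 862 with Panx2 repeat 2 (0.812%) and 1 of 152 without (0.658%) held it. The match, in capitals, is shown with up to 20 bases on each side, read on the strand that carries it. The first group had no Panx2 at either Polr1c peak and the second had Panx2 repeat 2 at both.
Timm22, no Panx2 at the Polr1c peak, chr11:76407086-76407133, minus strand: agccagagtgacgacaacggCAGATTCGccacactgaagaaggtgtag
Snrnp35, no Panx2 at the Polr1c peak, chr5:124483104-124483151, minus strand: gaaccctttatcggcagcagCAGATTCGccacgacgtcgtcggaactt
Nucks1, no Panx2 at the Polr1c peak, chr1:131910225-131910272, minus strand: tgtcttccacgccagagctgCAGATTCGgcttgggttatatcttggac
D6Wsu163e, no Panx2 at the Polr1c peak, chr6:126939889-126939936, minus strand: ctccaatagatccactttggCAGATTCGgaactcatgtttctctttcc
Brpf1, Panx2 at the Polr1c peak, chr6:113306941-113306988, plus strand: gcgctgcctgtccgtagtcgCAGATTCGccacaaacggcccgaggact
Ppp1r37, Panx2 at the Polr1c peak, chr7:19562384-19562431, minus strand: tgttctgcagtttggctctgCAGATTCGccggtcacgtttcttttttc
Fbxo8, Panx2 at the Polr1c peak, chr8:56551031-56551078, minus strand: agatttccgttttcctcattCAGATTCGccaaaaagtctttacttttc
Dclre1a, Panx2 at the Polr1c peak, chr19:56548406-56548453, minus strand: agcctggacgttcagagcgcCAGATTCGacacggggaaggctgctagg
Timm9, Panx2 at the Polr1c peak, chr12:71136696-71136743, plus strand: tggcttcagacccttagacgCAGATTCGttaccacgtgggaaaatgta
The Timm9 match lies in a promoter shared with 2700049A03Rik, and the other gene at the Fbxo8 site is Cep44. All of these matches lay inside the Polr1c peaks of both repeats. At Timm22 the match began 37 bases before the start and its middle lay 18 bp and 15 bp from the Polr1c summits of repeats 1 and 2. At Snrnp35 these distances were 16 bp and 12 bp. The distances varied in both groups, with 68 bp and 76 bp at D6Wsu163e, which had no Panx2. At the Panx2-bearing promoters they were 26 bp and 96 bp at Brpf1 and 152 bp and 117 bp at Fbxo8. A match is a description of the letters and does not identify a bound factor.

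Panx2 repeat 2 peaks at promoters went with another sequence property, the number of CG dinucleotides. The 250 bases before the start of Sgms1, a sphingomyelin synthase gene with Panx2 repeat 2 at its Polr1c repeat 2 peak (fold 19.5), hold 41 CG dinucleotides. Those of Kmt2a, a histone methyltransferase gene with a Polr1c repeat 2 peak (fold 18.7) that no Panx2 peak touched, hold 29. Kmt2a did have a Panx2 repeat 2 peak (2.60) elsewhere within 1000 bp of a start. Each had the highest fold among the named genes of its class whose tabulated promoter a Polr1c repeat 2 peak touched, and CG is in capitals.
Sgms1, Panx2 at the Polr1c peak, chr19:32388050-32388299, minus strand: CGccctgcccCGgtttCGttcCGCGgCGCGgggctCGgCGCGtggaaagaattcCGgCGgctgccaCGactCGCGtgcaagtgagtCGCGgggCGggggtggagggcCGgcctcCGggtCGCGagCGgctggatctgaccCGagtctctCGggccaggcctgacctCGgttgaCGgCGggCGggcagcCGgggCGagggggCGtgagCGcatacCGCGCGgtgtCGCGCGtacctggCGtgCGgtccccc
Kmt2a, no Panx2 at the Polr1c peak, chr9:44881290-44881539, minus strand: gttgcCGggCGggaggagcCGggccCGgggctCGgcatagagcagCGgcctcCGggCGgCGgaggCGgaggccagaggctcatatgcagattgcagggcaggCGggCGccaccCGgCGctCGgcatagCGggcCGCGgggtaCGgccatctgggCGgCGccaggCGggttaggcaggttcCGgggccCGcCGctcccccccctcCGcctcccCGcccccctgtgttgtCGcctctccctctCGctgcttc

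Every deposited peak carries the authors' fold (signal over background, a ratio) and −log10 q. Both serve here only to describe or rank peaks within a list. The Panx2 lists held 143578 and 471569 peaks on chromosomes 1 to 19, with median folds of 1.80 and 1.84, and 11 and 348 of them had a q of at most 0.01. Median folds were 3.05 and 2.75 in the Polr1c lists, where 212 (27.9%) and 1284 (3.63%) peaks had such a q. The peak names have 2 forms, called here A and B. Polr1c repeat 1 and Panx2 repeat 1 had form A, and Polr1c repeat 2, Panx2 repeat 2 and both Mgea5 lists had form B. Whether the forms mark separate calling runs is not stated in the labels. For Polr1c and Panx2 the repeat number and the name form cannot be told apart. No source used here says which input served as control. Peaks are not replicates of a condition and there is 1 list per repeat, so no test was made; intervals are exact binomial 95% intervals that cover counting error only.

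In Polr1c repeat 1, 98 peaks (12.9%) touched Panx2 repeat 1 only, 177 (23.3%) repeat 2 only, 137 (18%, interval 15.4% to 20.9%) both and 348 (45.8%, 42.2% to 49.4%) neither. As background, windows of 312 bp, the median width of these peaks, were tiled over chromosomes 1 to 19. Of the windows 1.29% touched both Panx2 lists and 75.2% neither, and 5.65% and 17.8% touched repeat 1 only and repeat 2 only. In Polr1c repeat 2 the classes held 1204 peaks (3.41%), 16116 (45.6%), 1289 (3.65%, 3.46% to 3.85%) and 16715 (47.3%, 46.8% to 47.8%) in the same order. Windows of 188 bp, the median width there, touched both lists in 1.01% and neither in 78.1%, and 5.20% and 15.7% touched repeat 1 only and repeat 2 only. The share with both Panx2 repeats was above that of windows in each Polr1c repeat, and the share with Panx2 repeat 1 only was below it in Polr1c repeat 2.

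**Figure D1:**
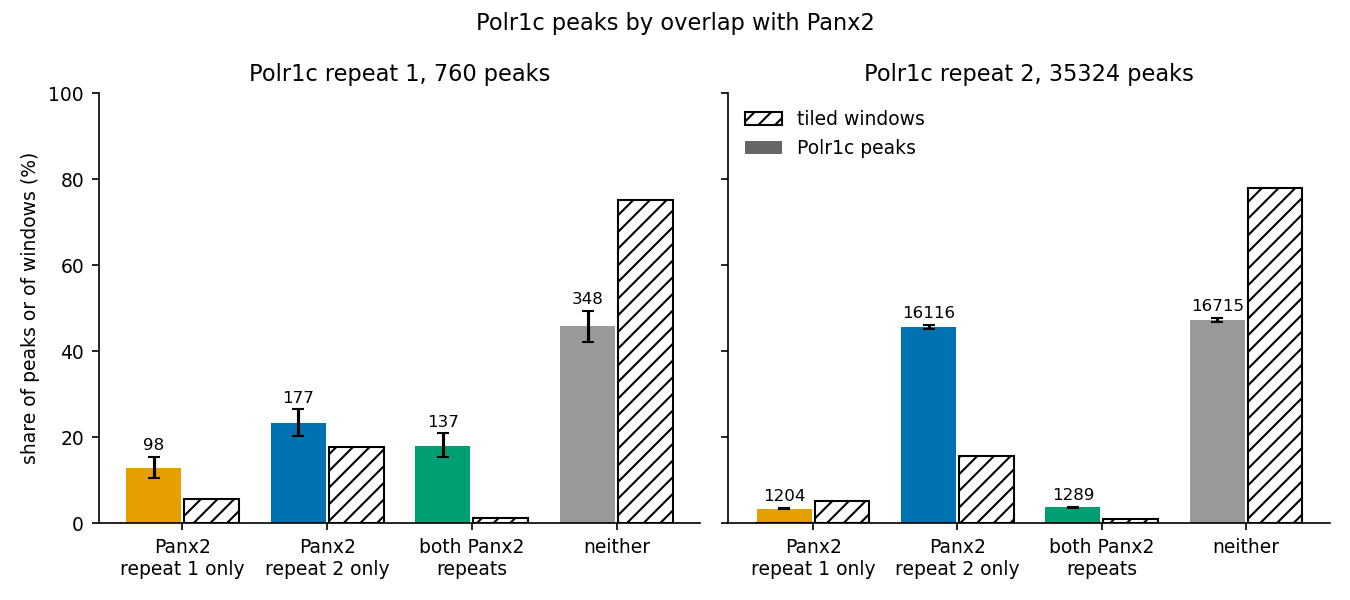
Share of Polr1c peaks in each Panx2 class (filled bars, with exact 95% binomial intervals and the number of peaks) and of tiled windows as wide as the median peak (hatched bars), for each Polr1c repeat. Peaks that touched neither Panx2 list made up 45.8% and 47.3%, against 75.2% and 78.1% of windows.

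Taken per Panx2 list, 235 of the 760 Polr1c repeat 1 peaks touched Panx2 repeat 1 (30.9%, 27.6% to 34.3%), against 6.95% of windows. With Panx2 repeat 2 the count was 314 (41.3%, 37.8% to 44.9%), against 19.1% of windows. Of the Polr1c repeat 2 peaks, 2493 touched Panx2 repeat 1 (7.06%, 6.79% to 7.33%), close to the 6.21% of windows, and 17405 touched Panx2 repeat 2 (49.3%, 48.7% to 49.8%), against 16.7%. The same contacts involve few of the Panx2 peaks. Polr1c repeat 1 reached 0.141% of the Panx2 repeat 1 list and 0.0583% of the repeat 2 list, and Polr1c repeat 2 reached 1.64% and 3.48%. The Panx2 peaks that met Polr1c repeat 2 were wider than the others, with medians of 1028 bp against 710 bp in Panx2 repeat 1 and 971 bp against 505 bp in repeat 2. Their median folds were 1.81 against 1.80 and 1.96 against 1.83. Of the 11 Panx2 repeat 1 peaks with a q of at most 0.01, 8 met a Polr1c repeat 1 peak and 11 a Polr1c repeat 2 peak. Of the 348 in Panx2 repeat 2, 29 and 123 did so. The Polr1c peaks at those 11 Panx2 repeat 1 peaks, 32 in repeat 1 and 47 in repeat 2, were all in the class with both Panx2 lists.

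Around the centres of Polr1c peaks, Panx2 was found more often at the centre than at a distance for 3 of the 4 pairs of lists. For Polr1c repeat 1 and Panx2 repeat 1, both of name form A, 26.8% of centres lay inside a Panx2 peak. The mean at 20 to 50 kb was 6.40%, a ratio of 4.2. For Polr1c repeat 2 and Panx2 repeat 2, both of name form B, the values were 42.5% and 18.7% (ratio 2.27). In the pairs of unlike name form they were 32.5% and 17.4% (1.87) for Polr1c repeat 1 and Panx2 repeat 2. They were 5.65% and 5.27% (1.07) for Polr1c repeat 2 and Panx2 repeat 1. Away from the centre the share fell quickly: for Polr1c repeat 2 and Panx2 repeat 2 it was 21.1% at 1 to 2 kb. For Polr1c repeat 1 and Panx2 repeat 1 it was 12.6% at 1 to 2 kb and 9.24% at 5 to 10 kb, still above the distant level. The part of any shared calling run or control in these ratios was not tested.

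**Figure D2:**
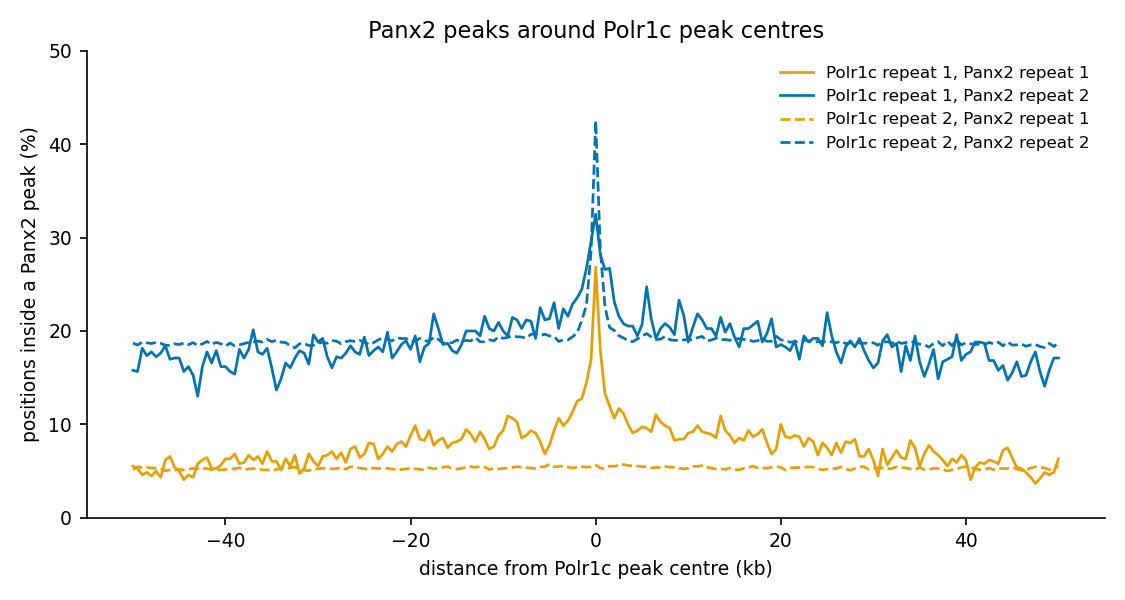
Percentage of positions inside a Panx2 peak (vertical axis) by distance in kb from the centre of Polr1c peaks (horizontal axis), for the 4 pairs of lists. Both solid lines (Polr1c repeat 1) and the dashed line for Panx2 repeat 2 climb at the centre, to 26.8%, 32.5% and 42.5%, while the dashed line for Panx2 repeat 1 stays near 5.27%.

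The overlap varied with the strength of the Polr1c peak, and in different ways for the 2 Panx2 lists. Of the Polr1c repeat 2 peaks with a fold of 10 or more, 38 of 49 touched Panx2 repeat 2 (77.6%) and 0 of 49 touched Panx2 repeat 1 (upper limit of the interval 7.25%). With a fold of 5 to under 10 the counts were 115 of 175 (65.7%) and 10 of 175 (5.71%), and under 5 the shares were 49.2% and 7.07%. In Polr1c repeat 1, 13 of the 25 peaks with a fold of 10 or more touched Panx2 repeat 2 (52.0%, 31.3% to 72.2%) and 1 touched Panx2 repeat 1 (4.0%). Panx2 repeat 2 was touched by 38.5% of those with a fold of 5 to under 10 and 41.4% of those under 5. Of the 190 Polr1c repeat 1 peaks with the lowest folds, 1.06 to 2.76, 54.2% touched Panx2 repeat 1, and of the 190 with the highest, 4.15 to 22.8, 16.8% did. With Panx2 repeat 2 the shares of these lowest and highest 190 were 53.2% and 44.2%. Polr1c peaks with a fold of 10 or more thus seldom had Panx2 repeat 1. The share with Panx2 repeat 2 rose with fold in Polr1c repeat 2 but not steadily in Polr1c repeat 1. By q, Panx2 repeat 1 went the other way. Polr1c peaks with a q of at most 0.01 touched it in 35.4% (repeat 1) and 16.1% (repeat 2), against 29.2% and 6.72% of the other peaks. They touched Panx2 repeat 2 in 55.7% and 72.6%, against 35.8% and 48.4%. Wider peaks have more room to touch another list: of the 8831 widest and 8831 narrowest Polr1c repeat 2 peaks, 63.8% and 38.2% touched Panx2 repeat 2, and windows of their median widths did so in 18.9% and 15.8%. Peaks present in the other Polr1c repeat touched Panx2 repeat 2 in 60.4% (repeat 1) and 59.2% (repeat 2), and Panx2 repeat 1 in 35.4% and 34.5%. Across the 19 chromosomes the share of Polr1c repeat 2 peaks ranged from 44.9% to 52.4% with Panx2 repeat 2 and from 4.84% to 11.2% with Panx2 repeat 1. The share of the fewer Polr1c repeat 1 peaks ranged from 14.8% to 64% and from 6.67% to 51.9%.

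The classes lay in different places. Within 1000 bp of the start of a protein-coding gene were 2837 of the 16116 Polr1c repeat 2 peaks with Panx2 repeat 2 only (17.6%, 17.0% to 18.2%), against 615 of 16715 with neither (3.68%, 3.40% to 3.98%). The share was 3.07% with Panx2 repeat 1 only and 7.29% with both, and 2.28% of the 188 bp windows lay that close to a start. Polr1c repeat 1 also had its highest share with Panx2 repeat 2 only, but the order of the other classes differed: 52 of 177 with repeat 2 only (29.4%, 22.8% to 36.7%), 45 of 348 with neither (12.9%, 9.59% to 16.9%), 10.2% with repeat 1 only and 5.11% with both, against 2.40% of the 312 bp windows. Windows that touched Panx2 repeat 2 lay near a start in 5.21% and those that touched Panx2 repeat 1 in 1.69% (188 bp windows). Read the other way, 2925 of the 3562 Polr1c repeat 2 peaks at a start and off tRNA genes touched Panx2 repeat 2 (82.1%), against 38.1% of windows near a start. For Polr1c repeat 1 it was 54 of 93 (58.1%), against 41.3%. Panx2 repeat 1 was touched by 3.48% and 9.68% of these start peaks, against 4.59% and 5.22% of windows near a start.

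Away from starts and small RNA genes, Polr1c repeat 2 peaks touched Panx2 repeat 2 at nearly the same rate inside protein-coding genes (45.7%), inside other genes (45.5%) and outside genes (45.5%). In Polr1c repeat 1 those values were 37.1%, 51.4% and 41.2%. Of all classes in repeat 2, the one with neither Panx2 list had the largest share inside protein-coding genes off their starts (50.5%), and the one with both Panx2 lists the largest share outside genes (42.7%). In repeat 1 the class with both Panx2 lists also lay outside genes most often, in 69 of 137 cases (50.4%, 41.7% to 59.0%). By gene class, lncRNA genes were touched by 9.08% of Polr1c repeat 2 peaks and 8.98% of windows, with 7.37% to 9.51% over the 4 classes. Pseudogenes were touched by 11 of 137 repeat 1 peaks with both Panx2 lists (8.03%) and by 3.18% of such repeat 2 peaks, against 1.40% and 1.38% of windows that touched both lists.

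**Figure D3:**
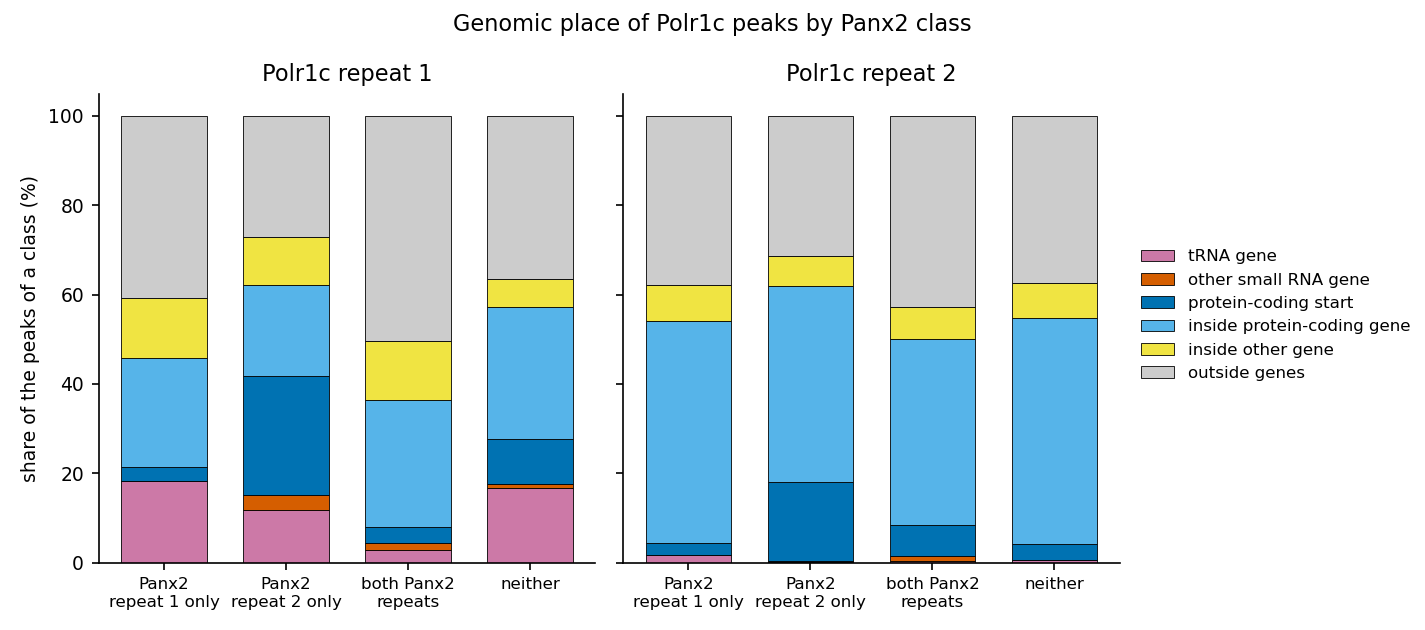
Genomic place of the Polr1c peaks of each Panx2 class, as a share of the class, for each Polr1c repeat, with places assigned in the order of the legend. Protein-coding starts have a larger share with Panx2 repeat 2 only (26.6% and 17.5%) than in the other classes, and tRNA genes make up 18.4% and 16.7% of the repeat 1 classes with Panx2 repeat 1 only and with neither.

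At promoters, defined as the 300 bases of the RefSeq table, the number of CG dinucleotides was higher with either protein. The median was 27 in the 862 promoters with Polr1c in repeat 2 only and Panx2 repeat 2 at that peak, 17 in the 152 without Panx2 repeat 2, and 13 in the 18992 promoters without Polr1c. Without Polr1c it was 20 where Panx2 repeat 2 was present and 6 where it was not. Promoters were therefore compared within bands of CG number. With 0 to 9 CG, Panx2 repeat 2 touched 54.5% of promoters with a Polr1c repeat 2 peak and 28.8% of those without. The shares were 72% and 53.4% with 10 to 19 CG, 82.1% and 61.5% with 20 to 29, and 92.7% and 79.7% with 30 or more. Promoters with Polr1c repeat 2 were thus touched by Panx2 repeat 2 more often in every band. Those with Polr1c repeat 1, far fewer, were touched less often than those without it in 3 of the 4 bands. There it was 0 of 4 promoters against 29.2%, 12 of 32 (37.5%) against 54.5%, and 16 of 32 against 63.2%, and in the highest band 10 of 11 (90.9%) against 81.3%. Panx2 repeat 1 went the other way with CG number, from 5.35% of promoters with 0 to 9 CG to 1.49% with 30 or more, both without Polr1c repeat 2. Polr1c repeat 2 itself was at 1.43% of promoters in the lowest band and 12.7% in the highest, while Polr1c repeat 1 was at 0.0473% and 0.340%, with its highest shares in the middle bands (0.765% and 0.759%).

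**Figure D4:**
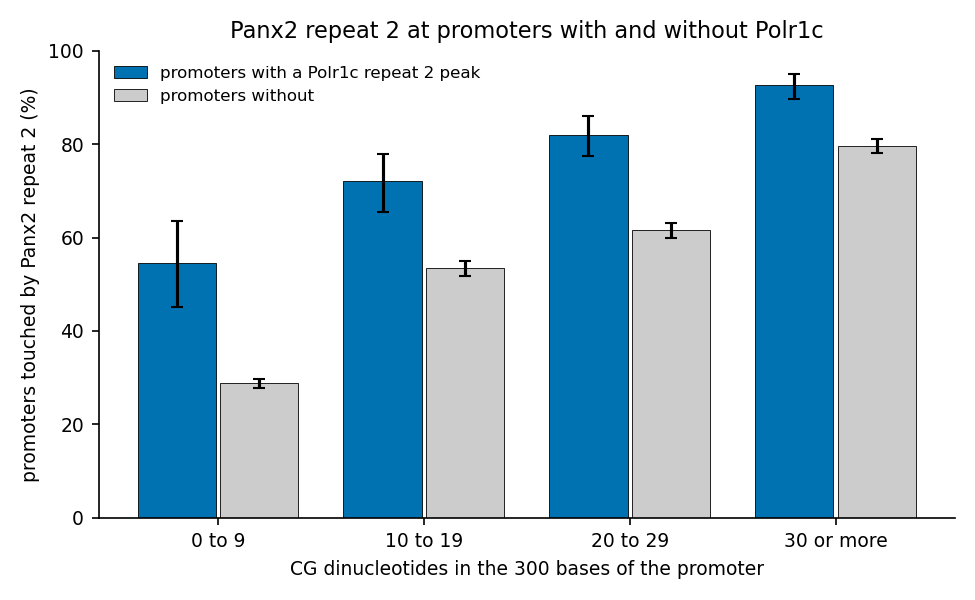
Share of promoters touched by Panx2 repeat 2 (vertical axis) by the number of CG dinucleotides in the promoter (horizontal axis), with and without a Polr1c repeat 2 peak in it; error bars are exact 95% binomial intervals. In each band the promoters with Polr1c repeat 2 are higher, 54.5% against 28.8% in the lowest and 92.7% against 79.7% in the highest.

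A Panx2 repeat 2 peak near a gene start is common. Of 20665 protein-coding genes, 79.3% had a Panx2 repeat 2 peak within 1000 bp of a start and 16.4% a Panx2 repeat 1 peak, against 16.6% with Polr1c repeat 2 and 0.586% with Polr1c repeat 1. Of the 3435 genes with Polr1c repeat 2, 3336 had Panx2 repeat 2 in the window (97.1%), against 75.8% of the genes without. For Panx2 repeat 1 the shares were 15.8% and 16.5%. Of the 121 genes with Polr1c repeat 1, 112 had Panx2 repeat 2 (92.6%), against 79.2% of the rest, and 32 had Panx2 repeat 1 (26.4%, 18.8% to 35.2%), against 16.3%. A peak in the same window need not overlap: the strongest Polr1c repeat 2 peak itself touched Panx2 repeat 2 at 2801 genes, 13.6% of all protein-coding genes.

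The strongest Polr1c repeat 1 peaks at gene starts with Panx2 repeat 2 were at Armc8, a gene of the CTLH ubiquitin ligase complex (Polr1c folds 14.7 in repeat 1 and 12.2 in repeat 2, Panx2 repeat 2 fold 2.23), and Kansl3, of the NSL histone acetyltransferase complex (13.3 and 11.9, Panx2 2.57). Next were the deubiquitinase gene Usp3 (13.2 and 11.1, Panx2 2.37), Brpf1, a gene of a histone acetyltransferase complex (12.0 and 10.4, Panx2 2.12), and the centrosomal gene Cep44 (11.7 and 10.6, Panx2 2.07). The strongest with neither were higher: Cenpu, a kinetochore gene (22.8), Kdsr, a ceramide synthesis gene (17.8), Timm22, a gene of mitochondrial protein import (16.4), Ints10 of the Integrator complex (15.2) and the autophagy gene Atg13 (14.7). The Panx2 class differed between the Polr1c repeats at Cenpu, Ints10 and Atg13, where the Polr1c repeat 2 peak did touch a Panx2 repeat 2 peak, with Panx2 folds of 1.81, 1.66 and 1.89.

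Of the Polr1c repeat 1 peaks near a gene start that touched Panx2 repeat 1, 9 lay off tRNA genes. The strongest with Panx2 repeat 1 only, near Ilf2 (Polr1c fold 10.3, Panx2 repeat 1 fold 1.93), Mettl26 (9.43 and 2.06), Agbl5 (7.69 and 2.24), Fmc1 (7.66 and 1.71) and Ndufs7 (7.40 and 1.73), each touched a tRNA gene lying within 1000 bp of the start. With both Panx2 repeats, the highest Polr1c repeat 1 folds were at Pde12, a gene for an RNA deadenylase (7.40 and 7.91 in the Polr1c repeats, Panx2 1.77 and 1.73), at Arl5c, again over a tRNA gene (6.82), and at Gm40369, over the 4.5S RNA gene Rn4.5s (6.11). Wnt7a, a Wnt ligand gene of neural progenitors, followed with 3.34 and 4.62 (Panx2 1.77 and 2.23), and Duxbl2, a member of a repeated homeobox family, with 2.53 and 4.37. In Polr1c repeat 1 the deposited −log10 q was 0 at both, and Duxbl copies are near-identical, so their reads cannot be assigned with certainty.

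In the long Polr1c repeat 2 list, the highest folds with Panx2 repeat 2 only were at the potassium channel gene Kcnj4 (21.8, Panx2 2.67), the SWI/SNF gene Smarce1 (21.6, Panx2 2.68), Sgms1 (19.5, Panx2 2.26), Odc1, the ornithine decarboxylase of polyamine synthesis (19.2, Panx2 2.91), and Arrdc3, an arrestin family gene (17.1, Panx2 2.48). Odc1 had no peak in Polr1c repeat 1, and there the folds of Kcnj4, Smarce1, Sgms1 and Arrdc3 were 3.72, 10.7, 4.21 and 4.5. At Sgms1 the strongest Polr1c repeat 2 peak lay away from the repeat 1 peak, which a second repeat 2 peak (6.94) overlapped. With neither Panx2 list the highest were Gpcpd1, a glycerophosphodiesterase gene (20.5), Kmt2a (18.7), Telo2, of the TTT complex (14.5), Timm22 (12.6) and Setd1a, a histone methyltransferase gene (11.5). Gpcpd1 and Kmt2a had no peak in Polr1c repeat 1, and the other 3 had folds of 7.11, 16.4 and 12.9. With Panx2 repeat 1 only the highest folds were low, at the DNA dioxygenase gene Tet1 (5.58, Panx2 1.81), D16Ertd472e (5.57, Panx2 1.93) and, over a tRNA gene, Tia1 (5.17, Panx2 1.90). With both Panx2 lists they were Pde12 (7.91), Mmd2 (4.67), Wnt7a (4.62), the transcription factor gene Tbx21 (4.59) and Duxbl2 (4.37). The deposited −log10 q of the Polr1c repeat 2 peak was 85.4 at Kcnj4, 96.2 at Gpcpd1 and 13.7 at Tet1.

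Sites present in both Polr1c repeats numbered 300. A Panx2 peak of either repeat touched 206 of them (68.7%, 63.1% to 73.9%): 20 with Panx2 repeat 1 only, 105 with repeat 2 only (35.0%), 81 with both (27.0%) and 94 with neither (31.3%). Of the 105 with repeat 2 only, 52 were at a protein-coding start (49.5%), and of the 94 with neither, 25 were (26.6%). tRNA genes took 47 of the 94 sites with neither and 15 of the 20 with Panx2 repeat 1 only (75%). The median geometric mean of the 2 Polr1c folds was 4.72 with Panx2 repeat 1 only, 4.90 with repeat 2 only, 4.69 with neither and 2.32 with both. Outside the named-gene rule and chosen after their values were seen are 2 further sites. The strongest of all 300 touched Eps15, an endocytosis gene, and Gm40225, at chromosome 4, 109279878 to 109280505 (Polr1c folds 11.5 and 30.1, Panx2 repeat 2 fold 2.02). The second strongest site with neither Panx2 list lay outside genes at chromosome 1, 86487186 to 86487814 (18.8 and 9.30).

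**Figure D5:**
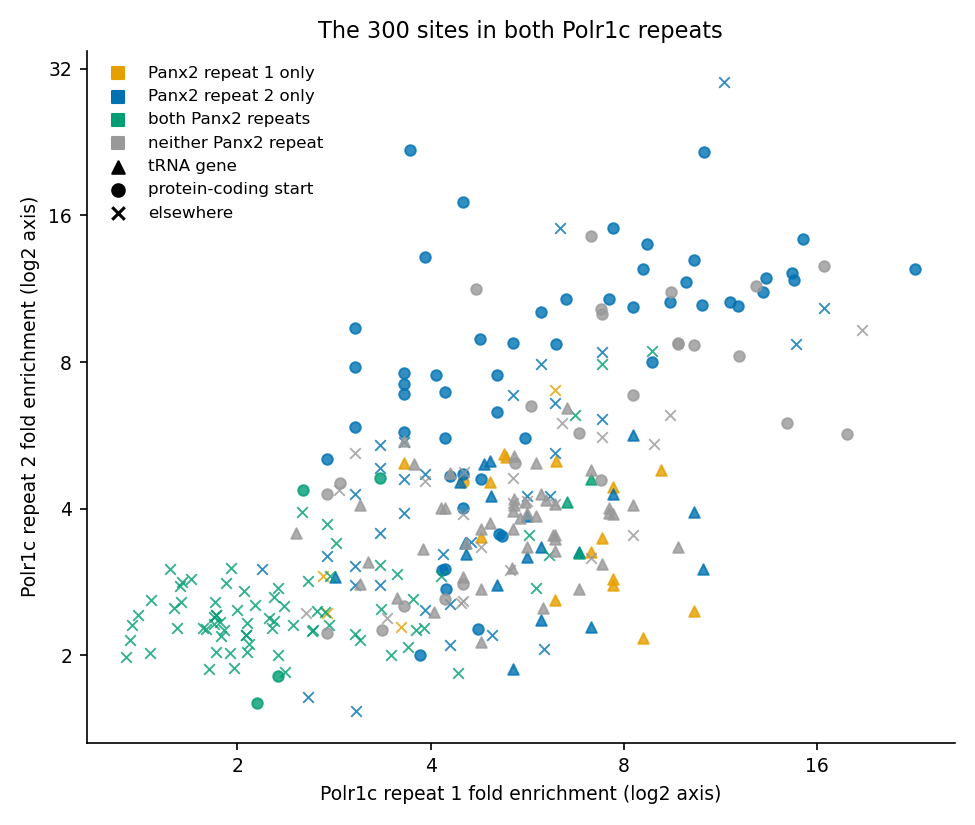
Fold enrichment of the 300 sites in both Polr1c repeats, repeat 1 against repeat 2 on log2 axes, with colour for the Panx2 class and shape for the place. Sites with both Panx2 repeats gather at low folds (median geometric mean 2.32), below those of the other 3 classes (4.69 to 4.90).

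At 109 protein-coding genes, 0.527% of all, both Polr1c repeats had a peak within 1000 bp of a start. At 78 of them a Panx2 peak touched at least 1 of the 2 strongest Polr1c peaks, and at 31 none did. The Panx2 class was the same in both Polr1c repeats at 101 genes, and Panx2 repeat 2 touched both peaks at 64. The median geometric mean fold was 5.41 with Panx2 and 6.25 without. Without Panx2 means here that none touched these Polr1c peaks: 102 of the 109 genes had a Panx2 repeat 2 peak somewhere within 1000 bp of a start. Among the 48 genes with a fold of at least 5 in both Polr1c repeats, 31 had Panx2 repeat 2 (64.6%) and 2 had Panx2 repeat 1 (4.17%). Among the other 61 it was 40 (65.6%) and 12 (19.7%). The 10 strongest with Panx2 were Cenpu (22.8 and 12.4), Smarce1 (10.7 and 21.6), Ints10 (15.2 and 14.3), Armc8, Atg13 with its neighbour Harbi1 at the same peak, Kansl3, the SWI/SNF gene Arid1a (10.0 and 15.1, at separate peaks), Usp3 and the adhesion receptor gene Adgrl1 (10.3 and 12.9). The 10 strongest without, of which all but Snrnp35 had Panx2 repeat 2 elsewhere in the window (Setd1a 2.49, Atp5l 2.21, Kdsr 2.14), were Timm22 (16.4 and 12.6), Setd1a (12.9 and 11.5), the fucosyltransferase gene Fut10 (9.49 and 11.1), Telo2 (7.11 and 14.5), Kdsr (17.8 and 5.69), the oxidoreductase gene Wwox (12.1 and 8.25), the minor spliceosome gene Snrnp35 (10.3 and 8.68), the ATP synthase gene Atp5l (14.4 and 6.00), Fcor (9.72 and 8.76) and D6Wsu163e (9.72 and 8.71).

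Gene groups were read against the 16.6% of all protein-coding genes with Polr1c repeat 2 and the 13.6% whose peak touched Panx2 repeat 2, which is 2801 of the 3435 genes with Polr1c repeat 2. Most Polr1c repeat 2 peaks at any start thus touched Panx2 repeat 2. Of 22 SWI/SNF remodelling genes, 8 had a Polr1c repeat 2 peak at a start (36.4%) and all 8 of these peaks touched Panx2 repeat 2. Smarce1, Arid1a (Panx2 2.35 at the repeat 2 peak) and Arid1b (Polr1c 5.97, Panx2 2.68) were the highest, and 3 of the 22 also had Polr1c repeat 1, each with Panx2 repeat 2. Of 24 Notch and Wnt genes, 11 had Polr1c repeat 2 (45.8%) and 10 of these touched Panx2 repeat 2, led by the Notch pathway transcription factor gene Rbpj (10.5, Panx2 1.86), Dvl1 (4.49) and Notch3 (4.22). Kinetochore genes differed in that 4 of the 5 with Polr1c repeat 2, of 24, touched neither Panx2 list, while Cenpu touched repeat 2. Among those with neither were Cenpk (4.13) and Knl1 (6.24 in repeat 1 and 3.53 in repeat 2). The Knl1 peaks lay over a tRNA gene, n-TSgct7. Of 12 H3K4 methyltransferase complex genes, 4 had Polr1c repeat 2, 2 with Panx2 repeat 2, including Kmt2c (7.95, Panx2 2.08), and 2 with neither, Kmt2a and Setd1a. With few members each, these counts describe the lists and were not tested.

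Among Integrator genes 4 of 14 had Polr1c repeat 2 and 3 of these touched Panx2 repeat 2, and of 20 mitochondrial import genes 6 had it and 4 did so. Nuclear oxidative phosphorylation genes (16 of 97, 12 with Panx2 repeat 2), proteasome genes (7 of 38, 5), Zfp zinc finger genes (51 of 386, 33), ribosomal protein genes (8 of 80, 5), histone genes (11 of 68, 11), autophagy genes (2 of 19, 2) and cell cycle genes (3 of 24, 2) followed. The 1100 olfactory receptor genes, known mainly from olfactory sensory neurons, had Polr1c repeat 2 in 7 cases (0.636%) and Panx2 repeat 2 in 20.9%, while Panx2 repeat 1 was at 17.3% of them, near its 16.4% over all genes. Of 21 subunit genes of RNA polymerases I and III, 4 had Polr1c repeat 2, 2 with Panx2 repeat 2 and 2 with neither. Polr1d, the partner of Polr1c, had a peak in both repeats with Panx2 repeat 2 (5.18 and 3.52, Panx2 2.32), and Polr2h (3.44, Panx2 1.82) and Polr3e (2.74, neither Panx2 list) had Polr1c in repeat 2 alone. Of 25 factor genes 6 had Polr1c repeat 2, led by Gtf3c5 (3.75, Panx2 1.72) and Bdp1 (3.11, with both Panx2 lists). Of 40 tRNA processing and aminoacylation genes 8 did, led by the glycyl-tRNA synthetase gene Gars (8.06, Panx2 2.25). At its own gene, Panx2 had a Polr1c repeat 2 peak of 2.44 that touched Panx2 repeat 2 (2.04). The deposited −log10 q of that Polr1c peak was 0, and Polr1c repeat 1 had none there. Oga had Polr1c in both repeats with Panx2 repeat 2 (3.63 and 5.74, Panx2 2.15). Of the 7 O-GlcNAc and hexosamine genes measured, no other had Polr1c.

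Peaks do not measure expression, so the labelled cell type could not be checked from these lists. Of 14 neural progenitor markers 5 had Polr1c repeat 2 at a start (35.7%, against 16.6% of all protein-coding genes), and 4 of the 5 touched Panx2 repeat 2. Hopx (3.50), Sox1 (2.75) and Pax6 (2.73) were the highest. Their −log10 q values were 1.43, 0.00137 and 0.00137, so none of them had a q of at most 0.01. None of the markers of neurons (5), astrocytes (5), oligodendrocytes (5) or endothelial cells (4) on these chromosomes had a Polr1c repeat 2 peak at a start. Of 5 microglial markers 1 did, Tmem119 (2.86, −log10 q 0.206). The lists are short and the counts were not tested. No marker of these lists had Polr1c repeat 1.

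At tRNA genes, the most numerous targets of RNA polymerase III, most Polr1c peaks touched neither Panx2 list. So did most windows, 75.2% of those of 312 bp and 78.1% of those of 188 bp. Of 391 tRNA genes, 131 (33.5%) were touched by Polr1c repeat 1 and 150 (38.4%) by repeat 2, with 102 in both, against 42 (10.7%) and 89 (22.8%) touched by the Panx2 lists. Of the 101 Polr1c repeat 1 peaks at tRNA genes, 58 touched neither Panx2 list, 18 repeat 1 only, 21 repeat 2 only and 4 both. Of the 138 in Polr1c repeat 2, 87 touched neither, 20 repeat 1 only, 25 repeat 2 only and 6 both. In Polr1c repeat 2, peaks there touched Panx2 repeat 2 in 22.5% (15.8% to 30.3%), against 82.1% at protein-coding starts and 16.7% of windows. They touched Panx2 repeat 1 in 18.8% (12.7% to 26.4%), against 3.43% at protein-coding starts and 6.21% of windows. In Polr1c repeat 1 the shares at tRNA genes were 24.8% (16.7% to 34.3%) and 21.8% (14.2% to 31.1%), against 19.1% and 6.95% of windows. Over the gene itself, Panx2 repeat 2 touched 15 of the 131 tRNA genes with Polr1c repeat 1 (11.5%, 6.55% to 18.2%) and 74 of the 260 without (28.5%, 23.1% to 34.4%). Panx2 repeat 1 touched 23 of the 131 (17.6%) and 19 of the 260 (7.31%). Over the gene itself the 2 Panx2 lists thus went in opposite directions between tRNA genes with and without Polr1c repeat 1. By overlap with the Polr1c peaks both lists were above windows, though for Panx2 repeat 2 the intervals included the window share.

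The Polr1c folds of tRNA genes with and without Panx2 at the peak overlapped. The 44 tRNA genes with both Polr1c repeats and Panx2 at a peak had a median Polr1c fold of 6.26 in repeat 1 (2.84 to 10.6) and 3.49 in repeat 2 (1.80 to 5.67). The 58 without had 5.40 (2.47 to 9.72) and 3.69 (2.13 to 6.45). The highest with Panx2 were n-TLcag10, a leucine tRNA gene on chromosome 13 (23453432 to 23453514, Polr1c folds 8.27 and 5.67), and n-TAtgc9 on chromosome 11 (9.14 and 4.80). Those were followed by n-TPcgg2 on chromosome 1 (10.3 and 3.94), n-TKctt10 on chromosome 11 (9.14 and 4.0, the same repeat 1 fold as its neighbour n-TAtgc9) and n-TGgcc7 on chromosome 13 (7.70 and 4.43). The highest without were n-TKctt17, a lysine tRNA gene on chromosome 12 (70969120 to 70969192, 6.53 and 6.45), n-TRccg1 on chromosome 11 (7.11 and 4.80), n-TKctt16 on chromosome 3 (8.28 and 4.07), n-TDgtc8 on chromosome 10 (9.72 and 3.34) and n-TEctc11 on chromosome 13 (7.60 and 4.0). Copies of a tRNA gene are near-identical, so reads may have been divided among them.

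By amino acid, with the letter taken from the gene symbol, all 5 asparagine and 7 of 11 glycine tRNA genes with both Polr1c repeats had Panx2 at a peak, as did 6 of 9 for proline and 4 of 5 for methionine. None of 6 for aspartate and 1 of 10 for arginine did. At glycine tRNA genes the Panx2 was mostly repeat 1 in Polr1c repeat 1 (7 of 13 genes, and 3 with Panx2 repeat 2). Over all groups it was 44 of 102 genes. Neighbouring genes can lie at the same Polr1c site, as n-TGgcc7 and n-TMcat7 do, so the genes are not separate observations. All 20 amino acid groups were looked at and the counts are small.

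The 5S ribosomal RNA genes, transcribed by the same enzyme, differed from the tRNA genes. The array on chromosome 8 (123538784 to 123622046) holds 48 annotated 5S genes, and Polr1c repeat 2 touched 37 of them and repeat 1 touched 5. Of the 46 Polr1c repeat 2 peaks in the array, 45 touched Panx2 repeat 2 and 9 Panx2 repeat 1. The 5 Polr1c repeat 1 peaks all touched Panx2 repeat 2 and not repeat 1. Polr1c folds were 2.0 to 5.07 (median 3.12) in repeat 2, where 27 of 46 had a q of at most 0.01, and 2.76 to 3.92 in repeat 1, where 0 of 5 did. The Panx2 repeat 2 folds there were 1.87 to 2.48. Panx2 repeat 2 covered 83.3% of the bases of the array and touched 45 of the 48 genes, so most positions in it would meet that list, and Panx2 repeat 1 covered 14.5%. Mgea5 repeats 1 and 2 were at 41 and 20 of the 46 repeat 2 peaks. The array copies are near-identical, so placement within it is uncertain.

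A second array, on chromosome 6, runs along the 4.5S RNA gene Rn4.5s, close to the Y RNA genes Rny3 and Rny1. It held 17 Polr1c repeat 1 peaks (47654875 to 47773144) and 38 of repeat 2 (47653669 to 47778302), with folds of 2.28 to 6.11 and 1.38 to 3.55. Panx2 repeat 2 touched 16 of the 17 and 36 of the 38, and Panx2 repeat 1 touched 7 and 16. At Rn4.5s itself Polr1c had folds of 6.11 and 3.22, and Panx2 1.83 and 2.08. Neither Polr1c repeat had a peak on Rny3 or Rny1.

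Unlike Rn4.5s, which had both Panx2 lists at its peaks, the other single genes of RNA polymerase III did not carry Panx2 at their Polr1c peaks. Rn7s1 and Rn7s2, genes of the signal recognition particle RNA on chromosome 12, had Polr1c folds of 3.41 and 2.38, and 4.46 and 2.55. The vault RNA gene Vaultrc5 had 7.40 and 5.61. Rmrp, the RNA of RNase MRP, and Rn7sk, a regulator of transcription elongation, had Polr1c repeat 2 only (3.06 and 2.36), and all 5 genes fell in the class with neither Panx2 list in each Polr1c repeat that had a peak. Rpph1, Rnu6 and Bc1 had no Polr1c peak, and Bc1 had a Panx2 repeat 2 peak of 1.72.

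MicroRNA genes were touched by 1 Polr1c repeat 1 peak and 14 repeat 2 peaks. Of the 14, 10 had Panx2 repeat 2 only, 2 both and 2 neither, against 45.6%, 3.65% and 47.3% of all Polr1c repeat 2 peaks. Windows with Panx2 repeat 2 only touched a microRNA gene in 0.0281%, those with neither in 0.00937%. The highest were Mir7672 at the Pde12 start (7.91) and Mir762 (6.12, Panx2 1.97). Only these and Mir8105 had a q of at most 0.01, and the peaks at Mir8105 and Mir6546 lay at tRNA genes. The series title names miR-9, a microRNA of neural progenitors. Of its 3 precursor genes, only Mir9-3 (chromosome 7, 79505264 to 79505353) had Polr1c peaks within 5 kb, at 79500605 to 79500910 in repeat 1 (4.5) and 79500477 to 79500818 in repeat 2 (2.59). Neither of these peaks touched a Panx2 peak of either repeat.

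The class with both Panx2 lists stood apart by its other values. In Polr1c repeat 1 its 137 peaks had the lowest median fold, 2.48, against 2.80 with Panx2 repeat 1 only, 3.63 with repeat 2 only and 3.05 with neither, yet 57 (41.6%) had a q of at most 0.01. All 25 of the repeat 1 peaks with a fold under 2 and such a q were in it. It was also the class most often found in the other lists: 89 (65.0%) were in Polr1c repeat 2, and Mgea5 repeats 1 and 2 touched 83.2% and 86.1%. Of all Polr1c repeat 1 peaks, Mgea5 touched 50.8% and 44.1%, against 21.5% and 18.2% of 312 bp windows, and 34.8% and 29.7% of the windows that touched both Panx2 lists. In all, 84 of the 137 (61.3%) lay in all 6 lists. Of the 137, 58 (42.3%) had another of the class within 10 kb, against 2.04% to 9.48% in the other classes. In Polr1c repeat 2 this did not hold. There it was 18.4% with both, 25.2% with repeat 2 only, 20.7% with neither and 4.32% with repeat 1 only.

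In Polr1c repeat 2 the 1289 peaks with both Panx2 lists had the same median fold as the other classes, 2.75, and 176 (13.7%) had a q of at most 0.01, against 1.92% to 4.69%. Mgea5 touched 68.6% and 52.8% of them, against 48.9% and 33.2% of all Polr1c repeat 2 peaks and 18.8% and 15.5% of 188 bp windows, and 79 lay in all 6 lists. A short stretch at the start of chromosome 9 held 27 Polr1c repeat 1 peaks (3000252 to 3038262, folds 1.35 to 2.66), and each touched both Panx2 lists and both Mgea5 lists. In Polr1c repeat 2 it held 40 peaks (folds 1.65 to 2.83), 38 of them with Panx2 repeat 1 and 39 with repeat 2. Without that stretch, the shares of Polr1c repeat 1 with Panx2 repeats 1 and 2 were 28.4% and 39.2%, and those of repeat 2 were 6.96% and 49.2%. Without peaks that touched both Mgea5 lists they were 20.8% and 28.6%, and 6.18% and 45.4%. The part that regions enriched in every library play in the shared peaks was not tested beyond these values.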

How the data were processed

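Per the submitters' processing notes, Trim Galore, Bowtie2 2.3.5 and MACS3 3.0.0a5 were used with mm10. Their order, the control, the cut-offs and the depth are not stated in those notes. Polr1c was deposited as narrow peaks and Panx2 and Mgea5 as broad peaks. Each deposited peak carries a fold (a ratio to background) and a −log10 p-value and q-value, both by the authors. The lists belong to single samples and were not pooled here. Only chromosomes 1 to 19 were analysed, and sex chromosomes and unplaced sequences were not.

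Overlap meant at least 1 bp shared. The background was windows of the median Polr1c width tiled over chromosomes 1 to 19, assembly gaps included. A start meant within 1000 bp of a start of 20665 protein-coding genes (GRCm38.p6). For 16457 the promoter table gave the strand, and for the other 4208 both ends were used. Python 3.11.15, pandas 2.3.3, NumPy 2.4.6, SciPy 1.17.1 (exact intervals) and matplotlib 3.10.9 were used. The overlap counting, not the intervals, was tested on simulated data.

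Genes named were, per Polr1c repeat and Panx2 class, the 5 with the highest Polr1c fold at a start; the 10 with and the 10 without Panx2 among genes with both Polr1c repeats; the 5 tRNA genes with and the 5 without; the single RNA polymerase III genes; and up to 3 genes per list by Polr1c fold. Members and lists were chosen with earlier results of these data known. Alternatives changed the Polr1c and Panx2 thresholds, the Panx2 list length, the overlap, the start window, tRNA genes and the repeats. Leaving out the start of chromosome 9 or peaks with both Mgea5 lists was chosen after seeing the data.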

Additional observations from a re-analysis of the deposited data

How the results depend on the processing

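No paired analysis was possible because the results are shares of peaks and come from no test. Of 58 alternative values, 15 moved by less than the counting interval and 43 by more. In the order Polr1c repeat 1 with Panx2 repeats 1 and 2, then Polr1c repeat 2 with Panx2 repeats 1 and 2, the overlap was 35.4%, 55.7%, 16.1% and 72.6% for Polr1c peaks with a q of at most 0.01. It was 7.89%, 21.6%, 0.906% and 23.2% for Panx2 peaks with a fold of at least 2, against 0.732%, 4.57%, 0.645% and 3.98% of windows. With 50% of the Polr1c peak covered it was 26.6%, 32.1%, 5.65% and 42.4%, and with the Polr1c summit inside 26.8%, 32.8%, 5.76% and 42.1%. Without Polr1c peaks in both Mgea5 lists it was 20.8%, 28.6%, 6.18% and 45.4%. With Panx2 repeat 2 cut to the length of repeat 1, it touched 27.0% and 27.4% of Polr1c repeats 1 and 2, against 5.92% and 5.18% of windows.

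Of Polr1c repeat 1 peaks with Panx2 repeat 2, 18.8% lay at a protein-coding start. This became 29.7% at a q of at most 0.01, 25.6% with Panx2 folds of at least 2, 23.9% with the shorter list and 24.2% with a 2500 bp window. For Polr1c repeat 2 the share was 16.8%, and became 39.4%, 25.5%, 24.9% and 21.0% in the same order, 18.2% with either stricter overlap and 13.1% with a 500 bp window. The 68.7% of sites in both Polr1c repeats with Panx2 became 46.3% with Panx2 folds of at least 2, 58.7% with the shorter list, 55.7% with either stricter overlap, 78.2% without tRNA genes and 53.6% without peaks in both Mgea5 lists. Leaving out 1 repeat at a time gave 33.7% (without Panx2 repeat 2) to 62.0% (without Panx2 repeat 1). The cause was not tested.

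Sequencing depth is not given with these lists, so the missing peaks of the short Polr1c repeat 1 list cannot be read as missing binding, and few Panx2 peaks had a q of at most 0.01.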
